A study of Mus musculus with 9 samples.

Results

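The immunoglobulin heavy chain locus (Igh) and the light chain loci Igk and Igl were examined for peaks of UBTF, the architectural factor of RNA polymerase I transcription, in pre-B cells. Members were the peaks of the 6 UBTF peak lists whose summit lay, in the mm9 build, on chr12:114496000-117249000 (Igh), chr6:67500000-70700000 (Igk) or chr16:19026000-19261000 (Igl). Of 1796909 peaks, 6593 (0.367%) met this rule, with 2552 at Igh, 3633 at Igk and 408 at Igl. The boundaries were set by position, so no peak score or density took part in the choice.

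The libraries came from UBTF chromatin immunoprecipitation sequencing (ChIP-seq) of primary bone marrow pre-B cells from C57BL/6 mice, sorted by flow cytometry. The labels give 1 gate for all stages, high B220 with low surface IgM and IgD. The study's methods give that gate for wild type and premalignant cells and describe the malignant cells as B220 positive and negative for IgM and IgD, so gate and stage cannot be told apart for malignant cells. The stages compared numbered 3, with 2 libraries each. Wild type mice and premalignant mice were 4 to 6 weeks old, and malignant mice were taken once a spontaneous lymphoma had formed, at 10 to 20 weeks. Premalignant and malignant mice carried the Eµ-Myc transgene as heterozygotes. The transgene drives Myc from the enhancer of the Igh J to C intron, so that wild type and transgenic cells differ in carrying the transgene's copy of that enhancer. Age and stage cannot be told apart between malignant and the other cells. The study's methods give female mice for wild type and premalignant cells and mice of both sexes for malignant cells. Sex is therefore not matched in the malignant comparisons either. The lists hold no expression values, so the sorted cell type could not be checked against its markers, and the 3 input samples were not analysed here.

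Antibody genes are assembled in developing B cells by joining V, D and J gene segments at Igh and V and J segments at the light chain loci, a process called V(D)J recombination. Pre-B cells have joined a heavy chain gene and are about to rearrange Igk. The study's methods describe the sorted wild type and premalignant cells as both progenitor B (pro-B) and precursor B (pre-B) cells. They describe the malignant cells as transformed pre-B cells. The state of rearrangement was not measured here, so its part in any difference between stages was not tested. The intron between the Igh J segments and Ighm holds both the enhancer that gives Eµ its name and the switch region, a tract of short tandem repeats used later in class switching. UBTF is best known for keeping ribosomal RNA genes open, and it also occupies sites outside them.

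The 6 lists fell into 2 sets that crossed the stages. The narrowest region measured 240 to 260 bp in the lists of wild type cells and of premalignant replicate 1 (narrow lists, 78074 to 184574 peaks outside ribosomal DNA). It measured 670 to 800 bp in premalignant replicate 2 and in malignant cells (wide lists, 279021 to 575595 peaks). Wild type cells therefore had only narrow lists and malignant cells only wide ones. Peak lists hold no read counts, so the depth is unknown, and each value is given with its set.

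Several of the best ranked summits lay at short tandem repeats. The sequences below are the 200 bp of mm9, plus strand, around the summit of the library with the best rank at each named region, for the Igl region the best rank among the narrow lists, and for the intron the best ranked summit at a repeat. For Igl region 1 and the intron the summit was thus not the best ranked of the region, which was at 98.31 in premalignant replicate 2 and 99.38 in malignant replicate 1 and held no such repeat. Igl regions 2 and 3 had no repeat at the summit of any list and are not shown. Capitals mark the longest uninterrupted tandem repeat of a unit of up to 6 bp.
Igh region 1, chr12:114686183-114686382: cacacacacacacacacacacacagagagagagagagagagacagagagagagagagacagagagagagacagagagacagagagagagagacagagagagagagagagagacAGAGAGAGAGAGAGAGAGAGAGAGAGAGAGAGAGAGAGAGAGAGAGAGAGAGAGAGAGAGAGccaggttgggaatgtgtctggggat
Igh region 2, chr12:115820328-115820527: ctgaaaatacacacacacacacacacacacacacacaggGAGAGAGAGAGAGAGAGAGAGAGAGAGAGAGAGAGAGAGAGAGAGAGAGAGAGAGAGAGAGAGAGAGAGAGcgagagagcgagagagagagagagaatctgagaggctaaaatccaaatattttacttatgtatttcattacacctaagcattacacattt
Igh region 3, chr12:115506988-115507187: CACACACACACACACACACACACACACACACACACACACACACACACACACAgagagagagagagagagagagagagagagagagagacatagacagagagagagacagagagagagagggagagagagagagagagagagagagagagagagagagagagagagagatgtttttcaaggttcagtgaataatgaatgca
Igh intron between the J segments and Ighm, chr12:114662853-114663052: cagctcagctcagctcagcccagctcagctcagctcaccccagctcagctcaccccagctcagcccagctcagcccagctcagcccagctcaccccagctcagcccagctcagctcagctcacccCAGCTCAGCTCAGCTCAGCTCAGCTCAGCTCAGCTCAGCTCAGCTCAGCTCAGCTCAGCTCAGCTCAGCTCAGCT
Igk region, chr6:67803041-67803240: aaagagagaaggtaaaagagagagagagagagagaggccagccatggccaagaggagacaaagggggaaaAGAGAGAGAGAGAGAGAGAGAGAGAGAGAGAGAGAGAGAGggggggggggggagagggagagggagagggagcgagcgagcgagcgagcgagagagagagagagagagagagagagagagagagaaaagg
Igl region 1, chr16:19133007-19133206: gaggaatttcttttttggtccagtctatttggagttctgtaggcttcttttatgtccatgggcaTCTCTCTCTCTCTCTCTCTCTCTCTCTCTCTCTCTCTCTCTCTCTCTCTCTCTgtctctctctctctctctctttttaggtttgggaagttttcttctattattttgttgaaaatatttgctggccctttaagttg
The repeat had the unit AG or its complement CT at Igh regions 1 and 2, the Igk region and Igl region 1, and CA with an adjoining AG tract at Igh region 3. The intron held 75 bp of the unit CAGCT, within the pentamer array of the switch region.

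Igh region 1 was the best ranked peak of the whole heavy chain locus in all 6 lists. Its peak regions spanned chr12:114685182-114687718, among the D segments, and overlapped the D segment Gm16783, with summits 134 to 155 bp from it. Ranks are given as a percentile within a list by the peak score, with 100 as the best. The percentile was 99.95 and 99.96 in wild type cells, 99.92 and 99.88 in premalignant cells, and 99.95 and 99.96 in malignant cells. Wild type and malignant cells overlapped in these values, as did the narrow and wide sets, and both premalignant values were below those of the other stages. As an order from the top of each list, the peak was number 55 and 77 in wild type cells, 66 and 719 in premalignant cells, and 140 and 245 in malignant cells. The 50-mers around its summits occurred a median of 6 to 13 times in the genome, and the part of this in the rank was not tested.

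Igh region 2 lay at chr12:115819369-115821482, between V segments and 1352 to 1366 bp from Ighv1-9. It ranked at 99.48 and 99.28 in wild type cells, 98.92 and 99.49 in premalignant cells, and 99.35 and 99.67 in malignant cells. Igh region 3 lay at chr12:115506019-115509317, with summits 970 to 978 bp from the V segment Gm16931. It ranked at 98.75 and 99.33 in wild type cells, 98.87 and 99.002 in premalignant cells, and 97.61 and 99.57 in malignant cells. Both regions had a peak in all 6 lists, and the stages overlapped at each.

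Of the named Igk regions, 1 is described, which did not hold the best Igk peak of any list. That best peak ranked at 99.73 and 99.86 in wild type cells, 99.73 and 99.98 in premalignant cells, and 99.85 and 99.98 in malignant cells. The described region had a peak in all 6 lists. It ranked at 98.34 and 96.64 in wild type cells, 97.90 and 91.71 in premalignant cells, and 98.55 and 97.47 in malignant cells. The peak of premalignant replicate 2 was a different one. Its summit lay 9591 bp from the V segment Igkv17-127, away from the AG repeat, and its 50-mers occurred a median of 2047 times in the genome. In the other lists the summit lay at the AG repeat, 8003 to 8016 bp from that segment, with a median of 1.

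At Igl the best peak of the narrow lists was region 1, 47550 to 47792 bp from Iglv1, at 96.23 and 97.52 in wild type cells and 93.30 in premalignant replicate 1. The wide lists had their best Igl peak in region 2, at 99.89 in premalignant replicate 2 and 97.61 and 99.88 in malignant cells. In the narrow lists region 2 ranked between 34.50 and 62.03. Its summit 50-mers occurred a median of up to 2787 times in the genome, and the summits of the 6 lists fell at different points of it. Igl region 3 showed the same split, with 27.56 to 53.83 in the narrow lists and 87.50 to 99.04 in the wide ones.

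**Figure D1:**
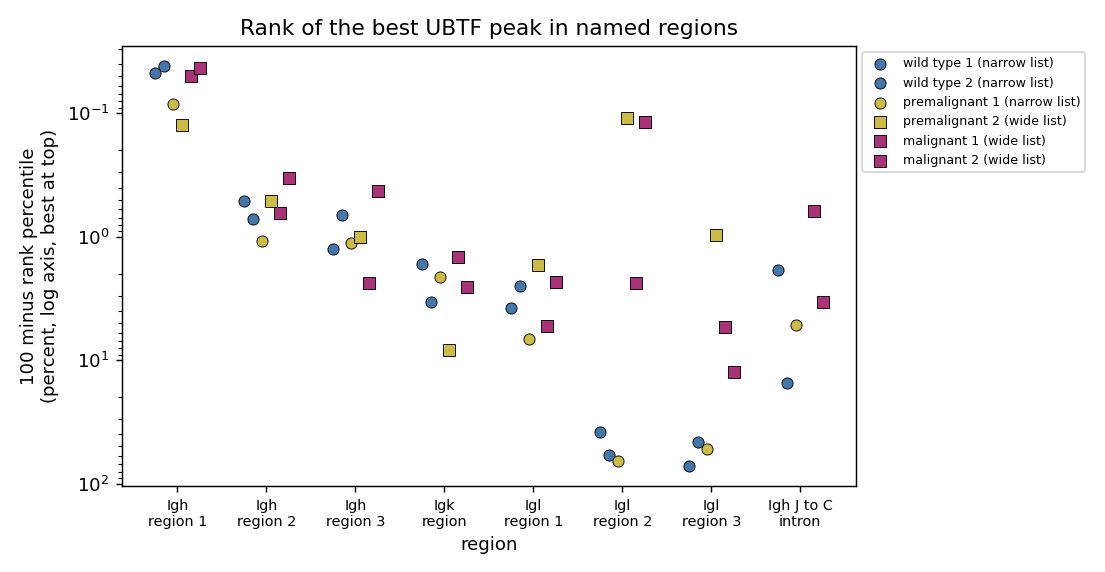
Rank of the best UBTF peak in each named region (x axis) as 100 minus its rank percentile in percent (y axis, log scale, best at the top), with 1 point per library, circles for narrow and squares for wide lists. Igh region 1 sits near the top in all 6 libraries, whereas Igl regions 2 and 3 separate circles from squares.

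The intron between the J segments and Ighm, which lies at chr12:114660942-114666724, held 3, 3, 3, 0, 2 and 1 summits in wild type 1, wild type 2, premalignant 1, premalignant 2, malignant 1 and malignant 2, the order used for every such series. Summits lay 3.32 to 4.10 kb from the nearest J segment, in peak regions that covered 50.7% and 51.7% of the intron in wild type cells and 50.5% in premalignant replicate 1. These regions covered 48.9% and 41.7% of the intron in malignant cells. The best summit ranked at 98.13 and 84.67 in wild type cells, 94.80 in premalignant replicate 1, and 99.38 and 96.62 in malignant cells. The switch region repeat was thus under a peak in 5 of 6 libraries, and premalignant replicate 2, the longest list, had none there.

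The corresponding intron of Igk, chr6:70673922-70676428, which also holds an enhancer, had no summit and no covered base in any list. No list had a peak over the 4 annotated Igh J segments, the 5 Igk J segments, Ighm, which encodes the constant part of IgM, or Igkc, which encodes that of the kappa chain. Of the other constant genes annotated at Igh, Ighg2c, Ighg and Ighg1 were under no peak. AI324046 was under 1 peak in both wild type and both premalignant lists, at 82.95, 79.62, 80.04 and 92.79, and under none in malignant cells. Gm900 was under a peak of wild type replicate 1 alone (59.58), and Iglc3 under a peak of premalignant replicate 2 alone (66.90). Of the 21 annotated D segments, Gm16783 was under a peak in all 6 lists, Gm16967 in 5 and Gm17486 in 4, while the other D segments were under no peak.

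Peak regions covered V segments to a small extent. Of 112 annotated V segments at Igh, 6, 7, 4, 10, 2 and 9 overlapped a peak region, or 5.36%, 6.25%, 3.57%, 8.93%, 1.79% and 8.04%. Peak regions covered 7.63%, 11.5%, 5.94%, 30.9%, 13.7% and 26.5% of the Igh span in the same order. At Igk, 5, 5, 2, 11, 1 and 6 of 99 V segments overlapped a peak region, against 6.58%, 10.8%, 6.23%, 36.9%, 18.5% and 28.5% of the span. The share of V segments was below the covered share in 6 of 6 libraries at both loci. None of the 3 annotated Igl V segments was under a peak in any list. This comparison was made after the values had been seen and was not tested.

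Locus-wide density was then set against flanks of the same length on either side. At Igh, wild type libraries had 47.2 and 73.4 summits per Mb, premalignant libraries 33.1 and 346, and malignant libraries 134 and 294. Its flanks had 51.04 and 76.5, 31.2 and 128, and 81.4 and 117 summits per Mb. The log2 ratio of locus to flanks was -0.11 and -0.06 in wild type cells, 0.09 and 1.43 in premalignant cells, and 0.72 and 1.33 in malignant cells. Over the 6 libraries its mean was 0.57 ± 0.70 (SD, n = 6), positive in 4 of 6, and did not pass the exact sign-flip permutation test (two-sided, p = 0.188, adjusted over the 3 loci 0.281). The mean was -0.03 ± 0.10 within the 3 narrow lists and 1.16 ± 0.39 within the 3 wide lists.

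Igk followed the same split. It had 38.1 and 75.9 summits per Mb in wild type cells, 35.9 and 451 in premalignant cells, and 192 and 343 in malignant cells. The log2 ratio to the flanks was -0.38 and -0.04 in wild type cells, -0.19 and 0.91 in premalignant cells, and 0.60 and 0.50 in malignant cells. Its mean of 0.23 ± 0.51 (SD, n = 6) did not pass the exact test (p = 0.344, adjusted 0.344), with -0.20 ± 0.17 in the narrow lists and 0.67 ± 0.21 in the wide ones. At Igl, whose 0.235 Mb held 12, 28, 13, 157, 91 and 107 summits, the ratio was -0.29 and 0.46 in wild type cells, 0.08 and 0.92 in premalignant cells, and 0.86 and 0.81 in malignant cells. The mean was 0.47 ± 0.49 (SD, n = 6), positive in 5 of 6 libraries (exact p = 0.0938, adjusted 0.281). The smallest p that 6 libraries allow in this test is 0.0312.

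**Figure D2:**
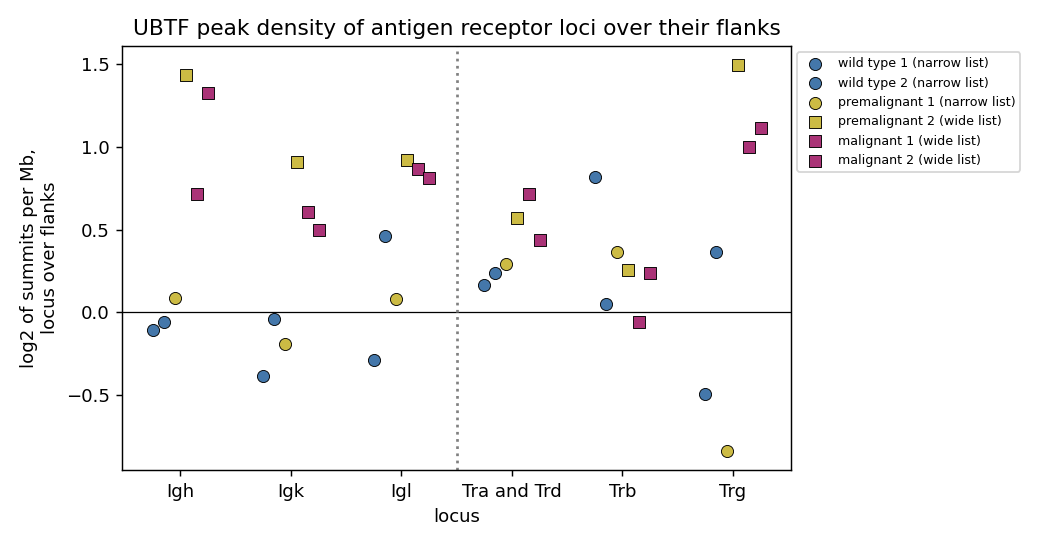
Log2 ratio of UBTF summits per Mb in each antigen receptor locus over its flanks (y axis), with 1 point per library, circles for narrow and squares for wide lists. The squares lie above the circles at all 3 immunoglobulin loci, and at Tra with Trd and at Trg, but not at Trb.

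The loci differed from their flanks in sequence. GC content was 39.9% at Igh against 46.2% in its flanks, 38.7% against 42.1% at Igk and 39.2% against 40.6% at Igl. The share of positions whose 50-mer occurs once in the genome was 74.8% against 94.7% at Igh, 72.3% against 90.1% at Igk and 74.8% against 85.1% at Igl. At Igh, 53.1%, 59.9%, 50.5%, 64.6%, 79.3% and 69.3% of summits had a repeated 50-mer, against 25.2% of its positions. The share in the flanks was 36.3%, 37.3%, 50.6%, 54.2%, 50% and 55.8% of summits, against 5.34% of positions. When only summits at unique positions were counted, the Igh ratio of malignant replicate 1 went from 0.72 to -0.21, with 76 of its 368 summits left, while those of premalignant replicate 2 and malignant replicate 2 were 1.40 and 1.14.

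Within the wide lists, many summits shared a region. At Igh 61.9%, 44.8% and 55.5% of the summits of premalignant replicate 2, malignant replicate 1 and malignant replicate 2 shared their peak region with another summit, against 18.5%, 22.8% and 19.8% in the narrow lists. Regions of all lists merged into 423 regions at Igh, of which 35 had a peak in all 6 lists, 263 in wide lists alone and 18 in narrow lists alone. Igk had 531 merged regions, 37 of them in all 6 lists, 356 in wide lists alone and 23 in narrow lists alone. At Igl, 4 of 24 regions were in all 6 lists. The wide lists are longer throughout the genome (279021 to 575595 peaks against 78074 to 184574). Shares of such regions over the genome are not given here, so these counts do not show whether the split is particular to these loci.

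Tandem repeats of at least 40 bp lay within 100 bp of 63.8%, 49.5% and 59.3% of Igh summits in the narrow lists, and of 8.30%, 14.1% and 8.41% in the wide lists. The flanks had 49.1%, 38.7% and 43.6% in the narrow lists and 14.6%, 14.96% and 14.7% in the wide ones. Of Igh positions taken every 1 kb, 1.85% had such a repeat. At Igk the share was 52.5%, 31.7% and 31.3% in the narrow lists and 5.27%, 6.84% and 6.29% in the wide ones, against 1.84% of positions. The Igk flanks had 46.7%, 35.2% and 33.1% in the narrow lists and 9.68%, 11.8% and 12.6% in the wide ones. At Igl 25% (3 of 12 summits), 10.7% and 15.4% lay at a repeat in the narrow lists and 1.27%, 2.20% and 1.87% in the wide ones, with 36.7%, 19.5% and 28%, and 5.42%, 5% and 6.56% in its flanks. Of the 10 best Igh peaks, 10, 9, 10, 4, 7 and 5 lay at a tandem repeat, and in 8, 9, 9, 4, 6 and 4 of them the unit was AG. Of the 10 best Igk peaks, 9, 9, 10, 1, 5 and 2 lay at a tandem repeat, with the unit AG in 7, 7, 7, 0, 3 and 1. At Igl the counts were 3, 1, 2, 0, 1 and 1 of 10. Repeat summits of the narrow lists had a higher median rank percentile (66.4, 80.2 and 77.0) than other Igh summits (28.3, 33.7 and 40.4), whereas in the wide lists the medians were 47.5, 57.1 and 54.8 against 47.5, 45.01 and 51.8.

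**Figure D3:**
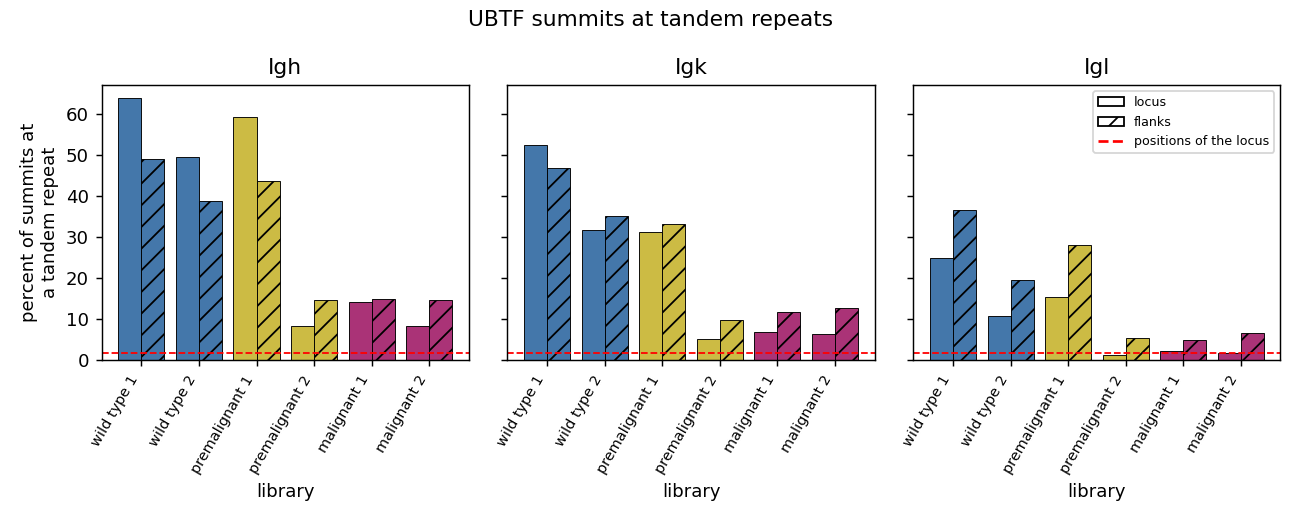
Percent of UBTF summits with a tandem repeat of at least 40 bp within 100 bp (y axis) in each library (x axis), with plain bars for the locus, hatched bars for its flanks and a dashed line for positions of the locus taken every 1 kb. Bars of the narrow lists (wild type 1 and 2, premalignant 1) are taller than those of the wide lists at Igh and Igk.

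Peak strength was compared as the rank percentile of members. The median rank percentile of Igh peaks was 55.4 and 53.0 in wild type cells, 58.8 and 47.5 in premalignant cells, and 45.6 and 52.0 in malignant cells. The difference from the flanks had a mean of 2.57 ± 3.25 percentile points at Igh, -4.19 ± 5.94 at Igk and -3.24 ± 8.18 at Igl (SD, n = 6, exact sign-flip p = 0.125, 0.156 and 0.438, adjusted 0.234, 0.234 and 0.438), and none passed. Peaks in the top 1% of their list numbered 3, 8, 1, 4, 5 and 9 at Igh, which is 2.31%, 3.96%, 1.10%, 0.42%, 1.36% and 1.112% of its members. Igk had 1, 3, 1, 12, 2 and 9 such peaks and Igl 0, 0, 0, 2, 0 and 1.

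Peaks were spread along the whole of each locus. Over the 27 full 100 kb windows of Igh, the lists had 1 to 12, 2 to 16, 0 to 9, 16 to 84, 1 to 31 and 11 to 61 summits per window, and premalignant replicate 1 alone had a window with none. Over the 32 windows of Igk the ranges were 0 to 11, 1 to 19, 0 to 15, 21 to 78, 2 to 47 and 12 to 68. The median Igh window exceeded 39.8%, 37.1% and 49.5% of all genomic windows in the narrow lists, and 78.3%, 66.7% and 70.2% in the wide ones. The median Igk window exceeded 23.9%, 48.7% and 49.5% of them in the narrow lists and 89.2%, 79.1% and 80.8% in the wide ones. The Igh window with the highest mean density relative to the flanks, chr12:115496001-115596000, held 12, 16, 9, 36, 20 and 32 summits and was above the flanks in 6 of 6 libraries. It contains Igh region 3. The lowest, chr12:116196001-116296000, held 1, 3, 0, 16, 1 and 11 summits, and 96.0% of its 50-mers were unique.

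At Igk the highest window was the first, chr6:67500001-67600000, at the end farthest from the constant gene, with 8, 19, 15, 78, 47 and 68 summits. The lowest, chr6:69800001-69900000, had 1, 2, 0, 23, 2 and 15 and was below the flanks in all 6 libraries. Of the 2 full Igl windows, the first, chr16:19026001-19126000, had 4, 11, 7, 83, 49 and 54 summits and the second, chr16:19126001-19226000, had 6, 15, 4, 59, 31 and 46. Window profiles of the lists were compared as a description. Across the 27 Igh windows Spearman's rho was 0.57 to 0.63 between narrow lists, 0.70 to 0.81 between wide lists and -0.02 to 0.59 between a narrow and a wide list, over windows that share their sequence composition. Across the 32 Igk windows it was 0.56 to 0.72, 0.79 to 0.80 and 0.39 to 0.65.

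**Figure D4:**
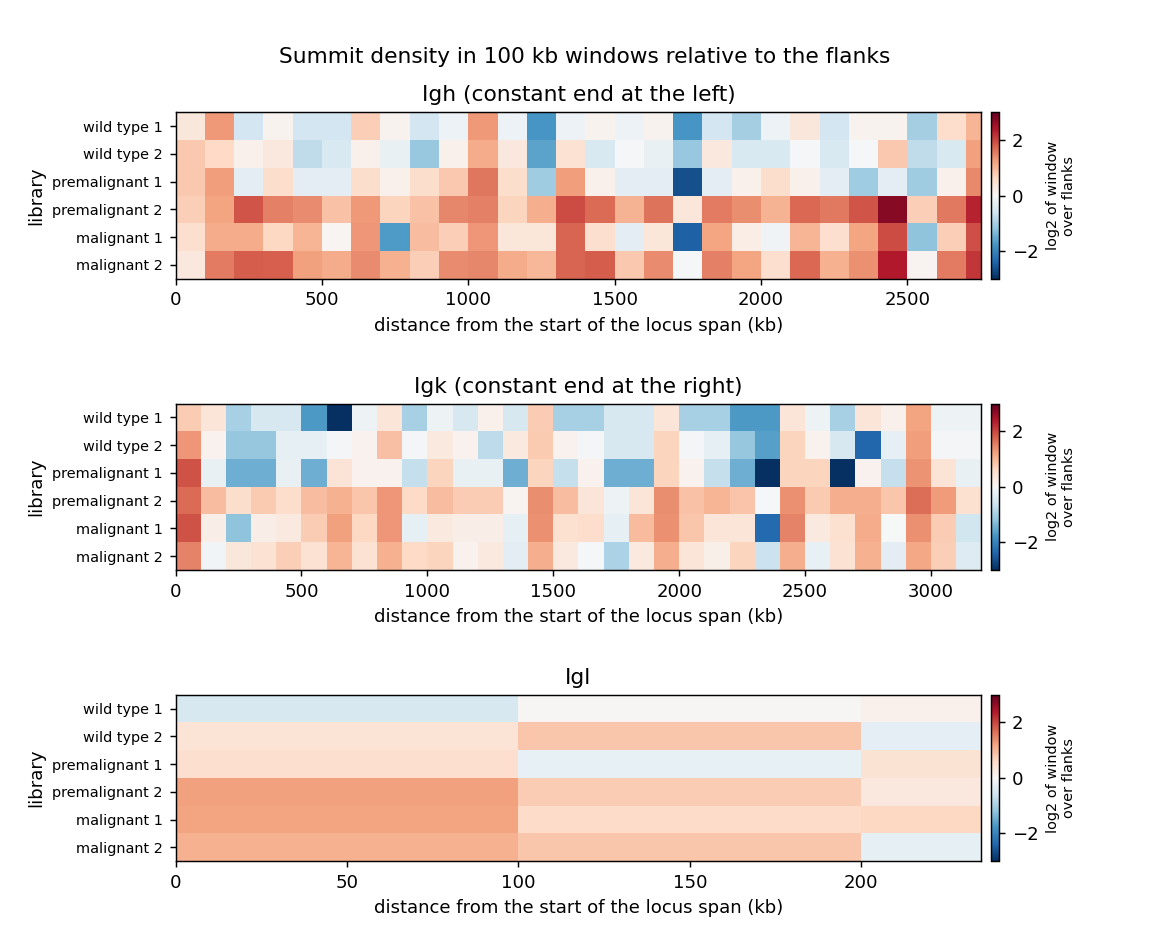
Log2 of UBTF summit density in each 100 kb window over the flanks (color, red above and blue below) along Igh, Igk and Igl (x axis, distance from the start of the span in kb), with 1 row per library. The rows of premalignant 2, malignant 1 and malignant 2 are mostly red, and the windows at 1700 kb of Igh and 2300 kb of Igk are pale or blue in most rows.

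By part of the heavy chain locus, the constant region (164.9 kb) was above the flanks in 6 of 6 libraries, with log2 ratios of 0.32 and 0.39 in wild type cells, 0.72 and 0.94 in premalignant cells, and 0.61 and 0.92 in malignant cells. The D segment part (98.2 kb) was also above the flanks in 6 of 6 libraries, at 0.58 and 0.48, 0.19 and 1.72, and 1.43 and 1.78. The span of the V segments was divided into 3 stretches of 812 kb. The stretch nearest the J segments had ratios of 0.04 and -0.11, 0.36 and 1.15, and 0.63 and 1.22, the middle one -0.54 and -0.19, -0.24 and 1.32, and 0.50 and 1.25, and the one farthest away -0.11 and -0.11, -0.11 and 1.75, and 0.89 and 1.45. In wild type cells the V segments were thus at or below these flanks except for 0.04 in 1 library, and the constant and D parts above them. This depended on the flank length. Flanks of 1 Mb had 64.5 and 98.5 summits per Mb in wild type cells, more than the constant region before the pseudocount. The D part of premalignant replicate 1 (3 summits) was also below its flanks of 1 Mb, and the other values stayed above. GC content was 47.3% and 43.4% in the constant and D parts, against at most 39.5% in the V stretches. These parts were compared as a description, with no test.

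The longest stretch without a peak region at Igh was 123 and 96.5 kb in wild type cells, 188 and 39.1 kb in premalignant cells, and 109 and 50.01 kb in malignant cells. In 5 of 6 libraries the longer of the 2 flank stretches was longer still, at 163, 253, 90.9, 205 and 106 kb, and the exception was wild type replicate 2, with 92.5 kb. The premalignant replicate 1 stretch, chr12:116134198-116322517, spanned 7 V segments, and the malignant replicate 1 stretch, chr12:116222011-116331198, overlapped it, with 89.0% and 87.8% of their 50-mers unique. At Igk the longest stretch was 159 and 135 kb in wild type cells, 180 and 32.9 kb in premalignant cells, and 94.1 and 46.6 kb in malignant cells. The longer of its 2 flank stretches was 143, 149, 211, 75.4, 119 and 98.0 kb, longer than that of the locus except in wild type replicate 1. The share of unique 50-mers in the Igk stretches was 61.5%, 51.7%, 63.5%, 99.4%, 89.7% and 87.1%. At Igl the longest stretch was 75.3 and 35.1 kb, 52.7 and 28.3 kb, and 33.2 and 29.2 kb. The longer flank stretch was 84.5, 80.5, 51.2, 30.4, 51.2 and 43.0 kb, longer except in premalignant replicate 1. Each flank is as long as its locus, so the longer of 2 flank stretches is drawn from more sequence than that of the locus. The median stretch at Igh was 14.7, 10.2, 24.8, 3.3, 8.97 and 3.3 kb, against 13.5, 10.2, 25.2, 6.1, 12.6 and 5.4 kb in the flanks. At Igk it was 19.4, 10.8, 23.6, 3.1, 6.6 and 3.6 kb against 16.2, 11.1, 21.6, 5.1, 10.4 and 3.99 kb.

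The T cell receptor loci, arrays of the same kind of segments that T cells use, were used for comparison. The mean log2 ratio of Tra with Trd, Trb and Trg to their flanks was 0.16 and 0.22 in wild type cells, -0.06 and 0.77 in premalignant cells, and 0.55 and 0.60 in malignant cells. Relative to this mean, Igh differed by 0.19 ± 0.44, Igk by -0.14 ± 0.24 and Igl by 0.10 ± 0.28 on the log2 scale (SD, n = 6, exact sign-flip p = 0.344, 0.25 and 0.375, adjusted 0.375 for each). No locus passed this test. At Trg, as at Igh, the wide lists stood above the flanks (1.20 ± 0.26) and the narrow lists did not (-0.32 ± 0.62).

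Between stages, the mean log2 ratio of Igh to its flanks was higher by 0.84 in premalignant than in wild type cells, by 0.26 in malignant than in premalignant cells and by 1.10 in malignant than in wild type cells. The differences were 0.57, 0.19 and 0.76 at Igk and 0.42, 0.34 and 0.75 at Igl. The exact permutation p of these 9 comparisons lay between 0.333, the smallest that 2 against 2 libraries allow, and 1 (adjusted 0.75 to 1), so none could pass. Within the wide lists, which leaves out premalignant replicate 1, malignant minus premalignant was -0.41 at Igh, -0.35 at Igk and -0.082 at Igl. Within the narrow lists, premalignant replicate 1 minus wild type was 0.17 at Igh, 0.02 at Igk and -0.0030 at Igl. Wild type and malignant cells shared no set, so stage and set cannot be told apart for that comparison.

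The limma fit over 25625 windows of 100 kb called none of the 62 immunoglobulin windows in any of the 3 contrasts. Over the genome it called 1 window lower in premalignant than in wild type cells (0.0039% of windows) and 0% in each of the other 5 combinations of contrast and direction. Without premalignant replicate 1, it called 7 immunoglobulin windows (11.3%) higher in premalignant than in wild type cells, beside 745 of all windows (2.91%), and 5 (8.06%) higher in malignant than in wild type cells, beside 942 (3.68%). It then called none of them lower, beside 1262 and 590 of all windows. Without premalignant replicate 2, it called 3 (4.84%) higher in malignant than in premalignant cells, beside 1136 (4.43%), and none lower, beside 1088. In malignant against wild type cells it then called 6 (9.68%) higher, beside 1239 (4.83%), and 1 (1.61%) lower, beside 1743 (6.80%). Without wild type replicate 2 it called 1 higher in malignant than in wild type cells, beside 13 of all windows. With all libraries and an unadjusted p under 0.05, there were 1, 6 and 1 windows of Igh, Igk and Igl for premalignant against wild type, 3, 8 and 2 for malignant against wild type and 0 for malignant against premalignant. These are 12.9%, 21.0% and 0% of the 62 windows, beside 7.996%, 13.4% and 1.19% of all windows. The median log2 fold change of share of summits, malignant against wild type, was 0.21 over the Igh windows, 0.72 over the Igk windows and 1.28 over the 3 Igl windows, against -0.22 over all windows. In 27 of 32 Igk windows the value was above 0, against 40.9% of all windows. For premalignant against wild type cells the medians were 0.22, 0.64 and 1.06 against -0.13 over all windows. The value was then above 0 in 29 of 32 Igk windows, against 43.0% of all windows. For malignant against premalignant cells the medians were -0.04, 0.08 and 0.15 against -0.07 over all windows.

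Genes of the recombination machinery, of the pre-B cell receptor, and of transcription and chromatin loop factors were counted by a summit within 1 kb of their annotated start. The factor genes, which are part of every count below, were Ctcf, Rad21, Yy1, Tcf3, Pax5, Ikzf1 and Ebf1. Of 24 listed genes, 10 and 11 had one in wild type cells, 10 and 8 in premalignant cells, and 10 and 10 in malignant cells. These are 41.7% and 45.8%, 41.7% and 33.3%, and 41.7% and 41.7%, beside 32.7% and 40.7%, 19.3% and 28.2%, and 43.0% and 34.8% of 22367 protein-coding genes. Ctcf and Rad21, whose products shape chromatin loops at antigen receptor loci, Yy1 and Tcf3, which encode transcription factors of these loci, and Hmgb1 and Hmgb2, cofactors of the recombinase, had a summit in all 6 lists. Pax5, the factor that maintains B cell identity, had one in 5 lists and Ikzf1, another lymphoid factor, in 4. Rag1, a subunit of the recombinase, had one in premalignant replicate 1 alone, and Rag2, its partner, Dntt, which adds nucleotides at joints, Igll1, a surrogate light chain gene, and Cd79a, a signaling subunit of the receptor, had none.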

How the data were processed

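UBTF ChIP-seq was measured in 6 libraries, 2 for each of 3 stages. As the study's methods give it, read pairs were aligned by the authors to mm9 plus 1 ribosomal DNA copy (bowtie2), duplicates were dropped (Picard) and SPP called the peaks of every library by itself. The submitters' processing notes list CASAVA 1.8.2 and Picard 1.110. The deposited lists hold a peak score in units of the caller, not scaled between libraries, and a false discovery rate as a q-value. They precede the authors' reproducibility step between replicates, which was not repeated. Depth is unknown.

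Peaks on the ribosomal DNA copy were left out. Summits were counted per Mb of sequence without N, with a pseudocount of 0.5 summit, in the loci and in equal flanks. Ratios were tested by exact permutation tests (Python 3.11.15, NumPy 2.4.6) and 100 kb windows with limma 3.58.1 in R 4.3.3 on log2 of the library's share of summits (0.5 added), requiring 6 summits over the lists. Adjustment was by Benjamini-Hochberg. On simulated windows for malignant against wild type, with 200 windows changed, the fit recovered 22.5% of 4-fold and 98% of 8-fold changes. The simulated spread is not set here against that of the real lists, whose premalignant replicates had a rho of -0.02 over Igh windows. The recovery therefore holds for the simulated windows alone. Genes (GENCODE), repeats and 50-mer copies came from NCBIM37.

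Named were the constant genes, J and D segments and J to C introns, the up to 3 regions per locus with a peak in most lists and the highest mean rank percentile, each list's best peak (2 Igk regions are not reported here), the highest and lowest windows and the longest stretches. Members and lists were chosen with earlier results of these data known. Replicates are biological replicate experiments by the study's methods. Same-numbered libraries had deviations correlated at 0.17, -0.05 and 0.17, so numbers were not taken as pairs. Alternatives were equal list lengths, an FDR of at most 0.01, merged peaks, replicated peaks, other flanks, pseudocounts, window sizes and normalizations, unique positions, GC correction, a replicate block and leaving out each library. The split by narrowest peak and a 30 bp repeat minimum were chosen after seeing the data.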

Additional observations from a re-analysis of the deposited data

Results flagged for a closer look

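In 6 comparisons every library of one stage lay on one side of 0 and every library of another stage on the other. The Igh density relative to its flanks was below 0 in both wild type libraries and above 0 in both premalignant and both malignant libraries, with mean differences of 0.84 and 1.10 on the log2 scale. The exact permutation test of each gave p = 0.333, the smallest possible for 2 against 2. With flanks of 1 Mb premalignant replicate 1 was at -0.51, so premalignant and wild type cells did not separate about 0. Malignant cells, at 0.20 and 1.13, still did. Wild type replicate 2 was at 0.045 with equal list lengths and wild type replicate 1 at 0.0098 with merged peaks, so neither comparison separated about 0 there. At unique positions malignant replicate 1 was at -0.21, so malignant and wild type cells did not separate about 0. The Igk density was below the flanks in both wild type and above them in both malignant libraries, a difference of 0.76 with the same p. Wild type replicate 2 was at 0.17 with flanks of 1 Mb and at 0.031 with merged peaks, where malignant replicate 2 was at -0.00097. Relative to the mean of the T cell receptor loci, Igh was below in wild type and above in premalignant and malignant libraries, by 0.68 and 0.72. These differences were not tested. In premalignant replicate 1, Igh (0.085) was below Tra with Trd (0.29) and Trb (0.36) and above Trg alone (-0.84, 3 summits). With flanks of 1 Mb it (-0.51) was below the mean, again above Trg alone (-0.59). Malignant replicate 1 (0.20) was then below all 3 loci, the lowest at 0.24. Neither comparison separated about 0 there. At unique positions malignant replicate 1 (-0.21) was also below all 3, the lowest at 0.0301, and malignant cells did not separate. The median rank percentile of Igl peaks was below that of the flanks in wild type and above it in malignant libraries, a difference of 8.37 points that was not tested. With equal list lengths the malignant libraries were at -3.26 and -10.54 and wild type replicate 2 at 0.96, and with peaks in both replicates malignant replicate 2 was at -4.01. In each malignant comparison wild type lists were narrow and malignant lists wide, and the part of the list set was not tested.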

How the results depend on the processing

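No density, percentile or T cell receptor comparison passed its adjusted threshold under any alternative, with adjusted p from 0.0938 upward. That is the smallest value possible when 1 of 3 loci is at the smallest p of 6 libraries, and it was reached by Igl density with flanks of 1 Mb (0.76) and at unique positions (0.73), Igh percentile with merged peaks (6.94) and Igk against the T cell receptor loci with peaks in both replicates (-0.25). Igl density was 0.067 with equal list lengths and 0.19 with merged peaks, Igh density 0.19 with flanks of 1 Mb and 0.36 at unique positions, and Igk density 0.13 with equal list lengths, 0.15 with merged peaks, 0.37 with flanks of 1 Mb and 0.098 without premalignant replicate 2. Within the narrow lists the mean log2 ratio to the flanks turned to -0.027 at Igh and -0.20 at Igk, relative to the T cell receptor loci to -0.13 at Igh and -0.023 at Igl, and premalignant minus wild type at Igl to -0.0030. Within the wide lists malignant minus premalignant turned to -0.41 at Igh, -0.35 at Igk and -0.082 at Igl, Igl percentile to 3.33 points and Igk against the T cell receptor loci to 0.030. With equal list lengths Igl against the T cell receptor loci was -0.33 and Igk malignant minus premalignant -0.031. With overlapping peaks merged these were -0.078 and -0.0073, and Igl premalignant minus wild type was -0.47. With peaks in both replicates Igl against the T cell receptor loci was -0.0031. With flanks of 1 Mb the Igh percentile difference was -0.78 and Igh against the T cell receptor loci -0.27. At unique 50-mer positions Igh against the T cell receptor loci was -0.052, malignant minus premalignant was -0.45 at Igh and -0.064 at Igk, and Igl premalignant minus wild type was -0.16. The cause of these turns was not tested. Leaving out each library in turn, malignant minus premalignant ranged from -0.41 to 0.94 at Igh, -0.35 to 0.74 at Igk and -0.082 to 0.76 at Igl. The lowest values were those without premalignant replicate 1. Premalignant minus wild type ranged from 0.17 to 1.51 at Igh, 0.021 to 1.12 at Igk and -0.0030 to 0.83 at Igl, the lowest without premalignant replicate 2. The percentile difference ranged from 1.45 to 3.10 points at Igh, -5.73 to -2.57 at Igk and -5.37 to -0.85 at Igl. Relative to the T cell receptor loci the range was 0.084 to 0.29 at Igh, -0.20 to -0.060 at Igk and 0.059 to 0.21 at Igl.

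Of immunoglobulin windows, the fit with the replicate block called 1 higher in malignant than in wild type cells, of 117 in the genome, and the block with GC correction called 0. Requiring peaks in both replicates makes replicates alike by construction, and left 61 immunoglobulin windows among 24339. For premalignant against wild type it called 16 higher (26.2%, beside 3300 or 13.6% of all windows) and 2 lower (3.28%, beside 4682 or 19.2%). For malignant against premalignant it called 7 higher (11.5%, beside 2525 or 10.4%) and 4 lower (6.56%, beside 1866 or 7.67%). For malignant against wild type it called 22 higher (36.1%, beside 3549 or 14.6%) and 3 lower (4.92%, beside 5429 or 22.3%). Leaving out 1 library called 0 to 7 higher for premalignant against wild type (7 without premalignant replicate 1, of 745 in the genome), 0 to 3 higher for malignant against premalignant (3 of 1136 without premalignant replicate 2), and 0 to 6 higher and 0 to 1 lower for malignant against wild type (6 and 1 without premalignant replicate 2, of 1239 and 1743; 5 without premalignant replicate 1, of 942; 1 without wild type replicate 2, of 13). The lone library of a stage is then assumed to vary like the others. With equal list lengths the mean rank percentile of Igh region 1 was 99.72 and that of Igl region 3 was 38.61, from 68.44. At a repeat minimum of 30 bp, 60.05% of narrow-list and 10.4% of wide-list Igh summits lay at a tandem repeat. Unknown depth limits every density, and 2 libraries a stage limit every comparison of stages.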
